A study of Mus musculus with 288 samples.

Results

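The MYC network of mouse embryonic stem cells was followed through release from 2i medium, using 9 genes taken by name from the 54232 rows of the deposited count table, of which 29240 had a read in a cell that was kept. The genes were the MYC paralogs Myc, Mycn and Mycl, their shared partner Max, the MAX-binding repressors Mxd3, Mxd4, Mxi1 and Mnt, and Mlx, the MAX-like partner of the related MLXIP proteins. All 9 were present in the table. The cells were labelled E14, an embryonic stem cell line of strain 129/Ola, and all were grown with LIF. Cells labelled D0 were in 2i+LIF, a serum-free medium with the MEK inhibitor PD0325901 and the GSK3 inhibitor CHIR99021, and those labelled D1 and D2 were taken 24 h and 48 h after the change to serum+LIF. Single cells were flow sorted, and the RNA part of scNMT-seq, an assay that reads RNA, DNA methylation and chromatin accessibility from the same cell, gave full-length reads without molecular identifiers. Each label was 1 plate of 96 wells, and no label names separate cultures, so the effects of plate, culture and time cannot be told apart. The cells of a plate do not stand for replicate cultures, and labels were compared by their values without a test.

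MYC proteins do not bind DNA alone. They pair with MAX and bind the E-box CACGTG at promoters, where they raise transcription of genes for ribosome building, nucleotide synthesis and the cell cycle, while MXD proteins and MNT compete for MAX and carry repressor complexes to the same letters. In embryonic stem cells MYC and MYCN overlap in function and support self-renewal and biosynthesis, and phosphorylation of MYC by GSK3 marks the protein for degradation. MLX binds its own partners, MLXIP and MLXIPL, and also some MXD proteins and MNT.

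In GRCm38 coordinates of the GENCODE M21 annotation, Myc lies at chr15:61985391-61990374 on the plus strand, Mycn at chr12:12936093-12941914 on the minus strand and Mycl at chr4:122995652-123002485 on the plus strand. Max lies at chr12:76937269-76962201 on the minus strand and Mlx at chr11:101087277-101092207 on the plus strand. Of the repressors, Mxd3 lies at chr13:55325168-55329823 and Mxd4 at chr5:34173883-34187720, both on the minus strand, and Mxi1 at chr19:53310518-53375810 and Mnt at chr11:74830920-74845725, both on the plus strand. Reads were assigned to whole genes, so exons and isoforms were not separated. Mlx shares 385 exonic bases with the opposite-strand gene Psmc3ip and Mxd3 shares 105 with Prelid1, both of which were read in every label (40.6 to 89.7 CPM and 323 to 743 CPM), and since strand-aware counting is not stated, part of the Mlx and Mxd3 reads may belong to those neighbours. Mxi1 and Mxd4 share 194 and 514 exonic bases with Gm10197 and Gm42846, which had no reads. Mxi1 and Max also overlap AC133451.2 and Gm47218, with 0 exonic bases shared.

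Some members carry the network's own binding letters at their start. A promoter of 300 bases (250 before and 50 after the RefSeq start, GRCm38.p6) was given for 8 of the 9 members, all except Myc, with 3 promoters for Mxi1 and 1 for each of the others. The E-box CACGTG, which reads the same on both strands, was in a promoter of 4 of these 8 genes, against 2187 of all 27025 genes (8.09%), 7 of 26 genes of a list of textbook MYC targets (26.9%) and 6 of 58 ribosomal protein genes (10.3%). The windows of the 4 members follow, 5′ to 3′ on the strand of the gene, with the E-box in capitals; a target gene, Cdk4, whose promoter holds 4 E-boxes, is shown for comparison by the 1 nearest to its start. The Max window is chr12:76962231-76962266, minus strand, with the E-box at −3 from the start; the Mlx window is chr11:101087235-101087270, plus strand, at −40. The Mnt window is chr11:74830786-74830821, plus strand, at −123, the Mxd4 window chr5:34187909-34187944, minus strand, at −219, and the Cdk4 window chr10:127063509-127063544, plus strand, at −11.
Max: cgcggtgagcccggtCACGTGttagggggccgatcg
Mlx: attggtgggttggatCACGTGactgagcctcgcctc
Mnt: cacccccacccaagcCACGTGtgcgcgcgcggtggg
Mxd4: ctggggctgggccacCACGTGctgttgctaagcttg
Cdk4: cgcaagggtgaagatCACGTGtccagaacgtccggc
The letters were thus found at the partners Max and Mlx and at the repressors Mnt and Mxd4, and not in the windows of Mycn, Mycl, Mxd3 or Mxi1. A match of letters is a description and no binding was measured here.

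Of 288 wells, 233 were kept, those with over 200000 reads, over 2000 genes and under 0.15 of their reads from mitochondrial genes, namely 90 of D0, 50 of D1 and 93 of D2. Median depth was 1610758.5 reads in D0, 7956161.5 in D1 and 2162090 in D2, over a range of 202157 to 43336922 reads a cell. With every cell thinned to 200000 reads the median cell had 7823, 8033.5 and 3957 detected genes, so D2 cells read fewer genes at equal depth. The labels stood apart in another way: Hprt, an X-linked housekeeping gene, was read in 48 of 50 D1 cells (mean 207 CPM) but in 9 of 90 D0 cells and 7 of 93 D2 cells, and 4 summed Y-linked genes had a mean of 269 CPM in D1, 22.9 in D0 and 5.21 in D2. The derivation of E14 that the study cites is known for cells that lack HPRT. The Hprt genotype of the cultures is not given in the sources used here, so in each comparison with D1 the time after release and a difference in the cells' origin cannot be told apart. Results are also given without the cells that differed in Hprt from most cells of their own label, called discordant here (at least 10 CPM in D0 and D2, under it in D1), which left 83, 48 and 88 cells. Pluripotency genes were read in 98.4%, 90.6% and 82.9% of gene and cell pairs at equal depth in D0, D1 and D2, whereas 10 genes of unrelated tissues, which give the level of stray reads, were read in 1.78%, 6.6% and 1.08%. Fibroblast markers were read in 0.74%, 6.33% and 0.54% of pairs, trophectoderm markers in 27.2%, 10.3% and 5.73%, and ectoderm markers in 6.67%, 16% and 0.65%. Their part in the members' values was not tested.

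Myc was nearly silent in 2i and was read at a far higher mean level after release. In D0 the lowest and the median cell had 0 CPM (the gene's reads as a share of the cell's gene reads, scaled to a total of 1e+06) and the highest 39.2, with a mean of 2.72 ± 7.67 CPM (SD between cells, n = 90). In D1 the lowest cell had 0, the median 54.2 and the highest 314 CPM, with a mean of 70.8 ± 75.7 CPM (n = 50). In D2 the lowest and the median cell were again at 0 while the highest reached 1278 CPM, with a mean of 73.6 ± 216 CPM (n = 93). The means of D1 and D2 were close over all cells, but they were made up differently: 10 of the 50 D1 cells held 50% of the summed Myc CPM, and in D2 it was held by 4 of 93 cells. The cells of all 3 labels overlapped.

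The mean of Myc was thus 26.1-fold higher in D1 than in D0 (log2 ratio 4.70) and 27.1-fold higher in D2 than in D0 (4.76), ranks 99.0 and 99.1 in percent among the 10256 genes compared. With any 1 cell left out the log2 ratios lay between 4.60 and 4.94, and between 4.48 and 5.00. Myc reads in D0 came partly from discordant cells: 5 of the 7 in D0 had a Myc read, at a mean of 10.95 CPM over the 7, against 11 of the other 83, at 2.02 CPM. In D2 all 5 discordant cells had a Myc read, at a mean of 312 CPM, against 29 of the other 88, at 60.1 CPM. Mycn in these 5 cells had a mean of 300.4 CPM, against 71.3 CPM in the other 88. Without the discordant cells the log2 ratios were 5.13 and 4.89. D2 over D1 had a log2 ratio of 0.056, which changed sign in several alternatives: it was −1.18 in plate columns 1 to 6, 0.61 in columns 7 to 12 and −0.24 without the discordant cells.

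Mycn was the main paralog in 2i. Its D0 cells lay between 0 and 245 CPM with a median of 36.4 and a mean of 48.2 ± 46.1 CPM. D1 cells ran from 0 to 513 CPM with a median of 87.5 and a mean of 140 ± 137 CPM, and D2 cells from 0 to 707 CPM with a median of 0 and a mean of 83.6 ± 150 CPM. The D1 mean was 2.90-fold that of D0 (log2 ratio 1.54), and the D2 mean 1.73-fold (0.79), which is under the 2-fold limit. In each label the cells of Mycn overlapped with those of the others, and the ratio in D2 without the discordant cells was 0.53.

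Mycl, the remaining paralog, was lower after release. It had a mean of 8.77 ± 19.2 CPM in D0 with a highest cell of 98.2, 3.24 ± 9.26 CPM in D1 with a highest cell of 45.3, and 0.13 ± 0.89 CPM in D2, where 39 reads came from 3 cells and the highest had 7.95 CPM; the median cell was at 0 in every label. Its mean over the 3 labels was under 5 CPM, the limit for a gene to be compared, so its log2 ratios of −1.44 in D1 and −6.09 in D2 over D0 are given as values alone. Leaving out D2 replicate 57 took the latter to −7.64. The share of D2 cells with a Mycl read at equal depth, 1.08%, was that of the genes of unrelated tissues.

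**Figure D1:**
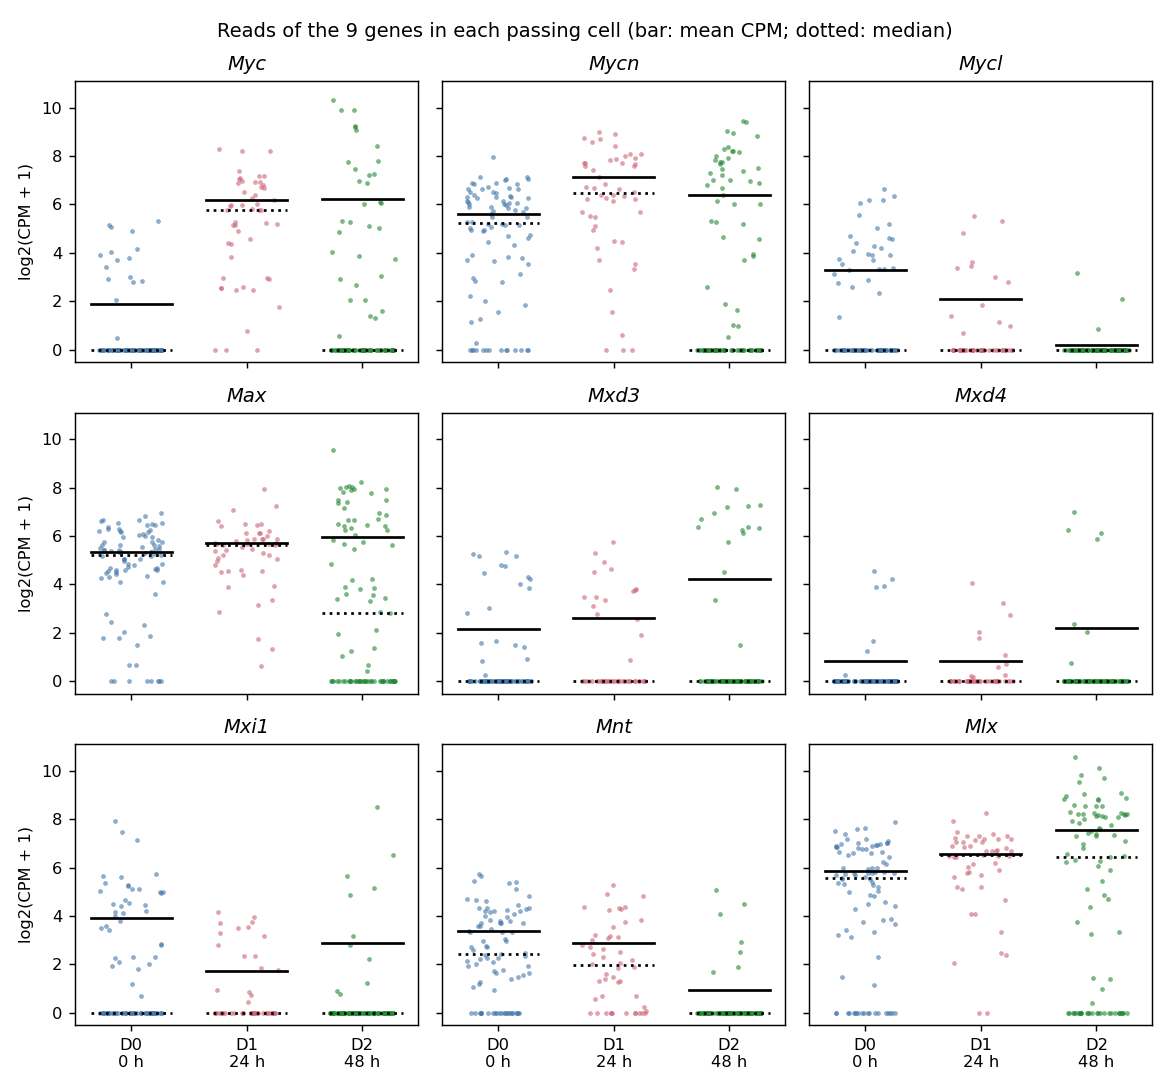
Level of each of the 9 genes in single cells as log2(CPM + 1) for 90 D0, 50 D1 and 93 D2 cells; each point is a cell, solid bars mark mean CPM and dotted bars the median. Myc rises out of a line of cells at 0 in D0 to a broad band in D1, whereas in D2 the cells divide between 0 and values of up to 1278 CPM.

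Levels of different genes were compared only per kilobase of transcript, taken as the median coding transcript of each gene. On this scale Mycn held 81.6% of the summed level of the 3 paralogs in D0, Mycl 11.7% and Myc 6.67%. In D1 the shares were 57.1% for Mycn, 41.9% for Myc and 1.04% for Mycl, and in D2 Myc had 56.04%, Mycn 43.9% and Mycl 0.053%. The summed paralogs had a mean of 22.7 ± 19.6 CPM per kb in D0, 94.4 ± 71.9 in D1 and 73.3 ± 132 in D2. By mean the summed level was higher in both labels after release. By median over cells it was 20.4 CPM per kb in D0, 82.4 in D1 and 14.96 in D2, lower in D2 than in D0, and 13.3%, 2% and 35.5% of cells had none of the 3 genes.

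Reads of Myc and Mycn were also counted in the same cells. At equal depth 12 of 90 D0 cells had reads of both genes, 1 of Myc alone, 58 of Mycn alone and 19 of neither. In D1 39 of 50 cells had both, 3 Myc alone, 6 Mycn alone and 2 neither, and in D2 15 of 93 had both, 13 Myc alone, 27 Mycn alone and 38 neither. The product of the shares of the individual genes gives 10.1, 37.8 and 12.6 cells with both, close to the 12, 39 and 15 counted. At full depth and per kilobase, Myc was above Mycn in 6 of the 76 D0 cells with a read of either gene. The same held in 19 of 49 D1 cells and in 23 of 59 D2 cells.

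**Figure D2:**
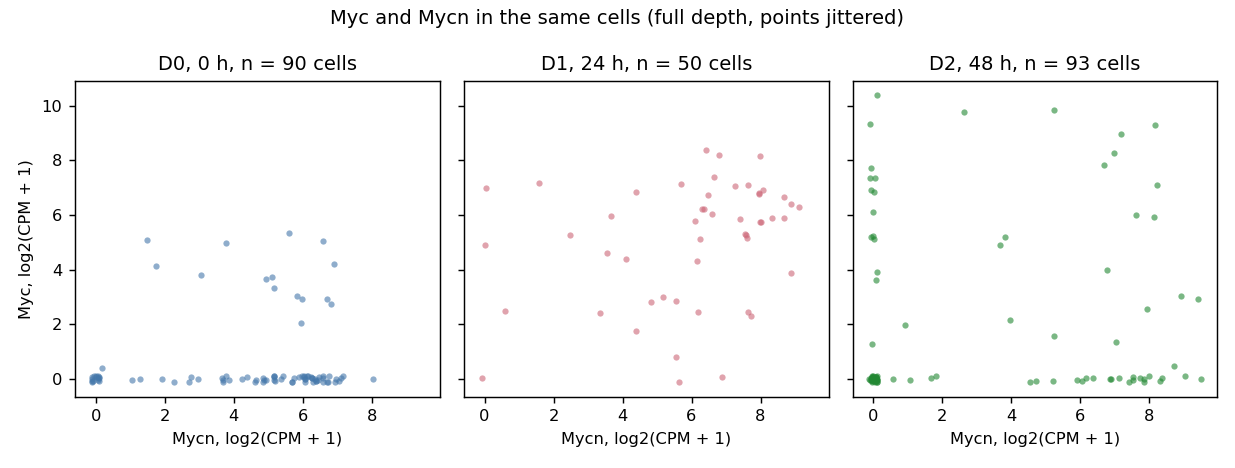
Level of Myc (vertical) against Mycn (horizontal) in each cell, both as log2(CPM + 1), with a panel for each label; each point is a cell, moved slightly at random so that cells at 0 can be seen. Most D0 cells lie along the Mycn axis with Myc at 0, and 16 of the 90 had a Myc read at full depth. D1 cells lie mostly off both axes (39 of 50 with both genes at equal depth), and D2 cells lie on the axes and between them.

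Max, without which MYC proteins do not bind their sites, changed less than 2-fold in its mean. It had a mean of 39.7 ± 30.4 CPM in D0 (median 36.6, highest 123), 51.6 ± 42.1 in D1 (lowest 0.53, median 48.1, highest 246) and 61.4 ± 111 in D2 (median 6.08, highest 761). The log2 ratios over D0 were 0.38 in D1 and 0.63 in D2, and with TMM factors the latter was 1.02, past 2-fold. The direction in D2 depended on the summary, since the ratio of medians over cells was −2.59, and that in D1 on the filter, since without a filter on wells it was −0.21. Max was read in all 50 D1 cells at full depth, the only member and label for which this held.

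Mlx, which shares the dimerization fold of MAX but pairs with MLXIP and MLXIPL, reached its highest mean in D2. It had 57.5 ± 56.2 CPM in D0 (median 46.4, highest 235), 92.6 ± 63.1 in D1 (median 89.6, highest 303) and 186 ± 261 in D2 (median 84.9, highest 1524), with a lowest cell of 0 in each label. The log2 ratio of D2 over D0 was 1.69, that of D1 over D0 0.69 and that of D2 over D1 1.01. The last of these lay on the 2-fold limit: it ran from 0.89 to 1.07 with any 1 cell left out, and the medians of D2 and D1 differed by −0.079 in log2. Without a filter on wells the ratio of D1 over D0 was −0.021.

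Among the repressors, Mxi1 was lower in D1 and D2 than in D0, and in D2 Mnt was lower and Mxd3 higher. Mnt, a MAX-binding repressor, had a mean of 9.43 ± 11.7 CPM in D0 (median 4.38, highest 52.7), 6.40 ± 8.71 in D1 (median 2.90, highest 37.97) and 0.93 ± 4.42 in D2 (median 0, highest 33.03). Its log2 ratio over D0 was −0.56 in D1 and −3.34 in D2, and it was read at equal depth in 56.7%, 46% and 6.45% of cells. Leaving out D2 replicate 63, the cell with the highest value, took the D2 ratio to −4.02, and the D1 ratio was −1.16 in plate columns 1 to 6 and 0.092 in columns 7 to 12.

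Mxi1 had a mean of 14.1 ± 35.8 CPM in D0 (median 0, highest 244), 2.30 ± 4.45 in D1 (median 0, highest 16.8) and 6.32 ± 39.1 in D2 (median 0, highest 363). It was lower in D1 than in D0, with a log2 ratio of −2.62 that was −1.56 in plate columns 1 to 6 and −4.50 in columns 7 to 12, and its D2 value turned on single cells. The log2 ratio of D2 over D0 was −1.16 with this cell, D2 replicate 36, and −2.53 without it, but −0.87 without D0 replicate 32, its highest D0 cell, and −0.73 in plate columns 7 to 12, both within 2-fold. That of D2 over D1 was 1.46 with it and 0.087 without it. This cell was among the 5 discordant D2 cells, and the D2 mean of Mxi1 over the other 88 was 2.56 CPM.

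Mxd3, an MXD protein expressed in dividing cells, had a mean of 3.42 ± 9.09 CPM in D0 (highest 39.98), 5.08 ± 10.7 in D1 (highest 52.2) and 17.9 ± 49.8 in D2 (highest 263), with a median of 0 throughout. The log2 ratio over D0 was 0.57 in D1 and 2.38 in D2. The D1 value was −0.28 without a filter on wells and passed 2-fold on summed reads (1.80), with TMM (2.01) and with median-of-ratios factors (1.90), where deep cells weigh more. The share of cells with a read was 15.6% in D0 and 17.2% in D2 at equal depth, and 22.2% and 17.2% at full depth. In the cells with a read at full depth the mean level was 15.4 CPM in D0 (20 cells) and 104 CPM in D2 (16 cells). Mxd4 was low in every label, at 0.79 ± 3.58, 0.76 ± 2.61 and 3.59 ± 17.5 CPM with highest cells of 22.2, 15.5 and 125 CPM. It was under the limit for comparison, and its log2 ratios over D0 of −0.067 in D1 and 2.18 in D2 are values alone. With any 1 cell left out they ran from −0.80 to 0.45 and from 1.51 to 2.70, the ends set by D1 replicate 59, D2 replicate 57 and, in both, D0 replicate 60, and without the discordant cells they were 0.88 and 3.14. It was read in 4 cells of each label at equal depth, 8% of D1 cells against 6.6% for the genes of unrelated tissues.

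The members' counts are read against the shares over all genes. Of the 7 members with a mean of at least 5 CPM over the labels, 2 were at least 2-fold higher in D1 than in D0 (Myc and Mycn, 28.6%) and 1 was at least 2-fold lower (Mxi1, 14.3%), where 13.5% and 29.8% of the 10256 genes compared passed the same limits. In D2 over D0, 3 were higher (Myc, Mxd3 and Mlx, 42.9%) and 2 lower (Mxi1 and Mnt, 28.6%), against 15.7% and 28.5% of genes. In D2 over D1, 3 were higher (Mxd3, Mxi1 and Mlx) and 1 lower (Mnt), against 21.6% and 19.6%. With 7 members each of them is 14.3% of the count. The limit of 5 CPM was set on the mean over the labels, so a gene can enter through the label where it is high. Mxd3 passed with 3.42 CPM in D0 and 17.9 in D2, and Mnt with 9.43 in D0 and 0.93 in D2. Mycl, at 8.77 CPM in D0 and 0.13 in D2, fell short with a mean of 4.05. All genes compared passed the same limit. In D2 over D1 the higher members fell from 3 to 1 without the discordant cells and to 0 with 10 CPM added to both means. The median log2 ratio over the 7 members was 0.57, 0.79 and 0.25 in these comparisons, and over all genes −0.36, −0.17 and 0.096. D0 serves in the first pair of comparisons and D1 and D2 in more than 1, so the comparisons share cells.

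The scale of the totals bears on these counts. With TMM factors on summed reads the median over all genes moved up by 0.30 in D1 and 0.29 in D2 over D0, and the share of higher genes among those past 2-fold went from 31.2% to 44.1% and from 35.5% to 50.2%; median-of-ratios factors gave 47.9% for the latter. With no filter on wells the median of D1 over D0 moved by −0.43, and the share of higher genes in D2 over D1 went from 52.4% to 63.6%. On summed reads, with or without these factors, 3 members were at least 2-fold higher in D1 than in D0. Under TMM factors 5 members (Mycn and Max in addition) were at least 2-fold higher in D2 than in D0 and 1 was lower, and under median-of-ratios factors 4 were higher. Myc kept its direction over D0 in every alternative that gave a value, with a lowest log2 ratio of 2.67 in D1 when 10 CPM was added to both means.

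**Figure D3:**
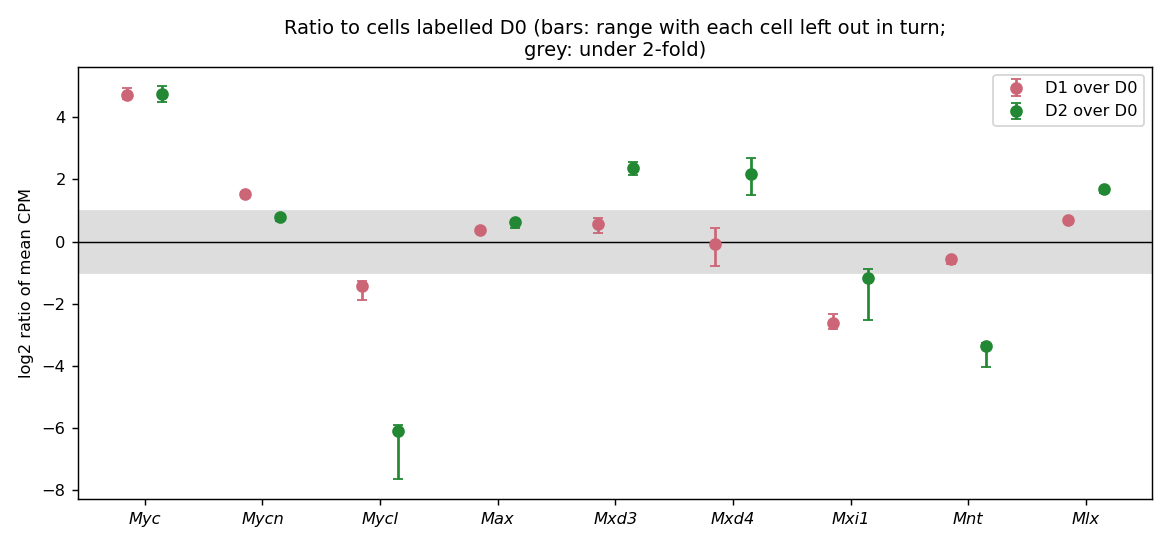
Log2 ratio of mean CPM of D1 and of D2 over D0 for each gene; points are the ratios over all cells and the bars run over the values with any 1 cell left out, and the grey band spans 2-fold either way. Myc stands near 4.7 in D1 and D2 over D0, Mnt falls in D2 and the D2 bar of Mxi1 runs from −2.53 to −0.87, into the grey band; Mycl and Mxd4 were under the limit for comparison.

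The order of levels per kilobase changed between labels. In D0 it ran from Mlx (32.3 CPM per kb) over Max (20.6), Mycn (18.5), Mxi1 (9.47), Mnt (3.62), Mycl (2.66), Mxd3 (2.58) and Myc (1.52) to Mxd4 (0.32). In D1 Mycn came first (53.9), followed by Mlx (51.97), Myc (39.5) and Max (26.8), and then by Mxd3 (3.83), Mnt (2.46), Mxi1 (1.55), Mycl (0.98) and Mxd4 (0.30). Myc thus moved from place 8 to place 3. In D2 Mlx led (104), with Myc (41.1), Mycn (32.2), Max (31.9), Mxd3 (13.5), Mxi1 (4.24), Mxd4 (1.43), Mnt (0.36) and Mycl (0.039) behind it. Of all neighbours in these orders, only Max and Mxd3 in D1 differed by more than the larger of their SDs between cells (22.96 against 21.8 CPM per kb). The place of Mxi1 depends on its transcript: by its longest it had 2.80 CPM per kb in D0. The 4 repressors together had a mean of 16.0 CPM per kb in D0, 8.13 in D1 and 19.5 in D2, below the MYC paralogs in each label. By median over cells they had 8.93, 5.37 and 0 CPM per kb, so that D2 was lowest, and 16.7%, 12% and 63.4% of cells had none of the 4.

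At equal depth, the share of cells with a read separated the labels in another manner than the mean. Myc was read in 14.4% of D0 cells (95% Clopper-Pearson interval 7.92 to 23.4%), 84% of D1 cells (70.9 to 92.8%) and 30.1% of D2 cells (21.03 to 40.5%). Mycn was read in 77.8% (67.8 to 85.9%), 90% (78.2 to 96.7%) and 45.2% (34.8 to 55.8%). The intervals cover counting error only. D2 had the lowest share of cells with a read for Mycn, Mycl, Max, Mxi1, Mnt and Mlx and, by a small margin (4.30% against 4.44% in D0), Mxd4, although the means of Mycn, Max and Mlx were above those of D0. Max went from 85.6% and 94% to 51.6%, Mlx from 75.6% and 88% to 64.5%, Mxi1 from 33.3% and 22% to 7.53% and Mycl from 32.2% and 20% to 1.08%. The same held for genes at large, since the median share of cells with a read over the 10256 genes stood at 73.3% for D0, 74% for D1 and 24.7% for D2. Fewer cells with the RNA and a lower capture per cell cannot be told apart here.

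**Figure D4:**
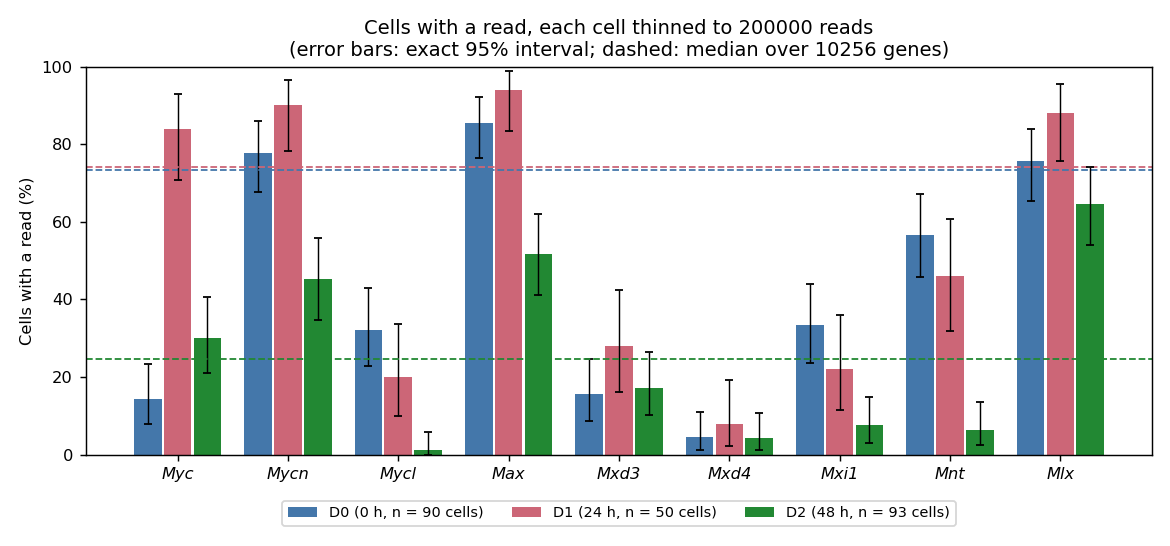
Percent of cells with at least 1 read of each gene after thinning every cell to 200000 reads, for D0, D1 and D2; bars start at 0, whiskers are 95% Clopper-Pearson intervals and dashed lines the median over 10256 genes. Myc goes from 14.4% in D0 to 84% in D1 and 30.1% in D2, and for most other genes the D2 bar is the lowest.

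Ribosomal protein genes are among the best known outputs of the MYC network, and their summed share of reads varied between cells, with medians of 5.37% in D0 (2.29 to 17.99%), 9.94% in D1 (5.37 to 26.2%) and 7.08% in D2 (4.42 to 16.6%). The relation between a member and this share was described by Spearman's rho across the cells of 1 label on thinned reads. It was read only where at least 50% of cells had a read of the member. Cells of a plate share library and base composition, so no p is given. Their depth differed, and the share itself had a rho with a cell's full read number of −0.47 in D0, −0.25 in D1 and 0.39 in D2. In D0 (90 cells) the members' values were −0.037 for Mycn, 0.086 for Max, 0.071 for Mnt and 0.091 for Mlx. All lay inside the range of −0.27 to 0.26 that held from the 5th to the 95th percentile of 7406 genes. In D1 (50 cells) they were −0.29 for Myc, −0.43 for Mycn, −0.31 for Max and −0.30 for Mlx. In D2 (93 cells) they were −0.0027 for Max and −0.26 for Mlx. The paper sets apart a cluster of cells at 48 h, marked by several ribosomal protein genes and genes of oxidative stress. The labels do not name the cells of this cluster, and its part in the D2 values was not tested. No member that could be read had a rho above 0.091 in any label.

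Most of these D1 values were common among genes: Myc lay at percentile 22.7, Mlx at 20.5 and Max at 18.8, while Mycn, at percentile 7.04, was nearer to the end of the range. At or below a rho of −0.2 stood 4 of the 4 members read in D1 and 38.3% of 7340 genes, whose median was −0.14 and whose 5th to 95th percentile ran from −0.47 to 0.40. In D0 it was 0 of 4 members and 11.2% of genes, and in D2 1 of 2 members and 7.54% of 2800 genes. Since a share taken by ribosomal protein reads lowers that of every other gene, the values were recomputed with these reads taken out of the total, which gave −0.27, −0.42, −0.27 and −0.25 in D1 for Myc, Mycn, Max and Mlx, against a median over genes of −0.091 and a 5th percentile of −0.43. The ribosomal protein share also moved with the number of detected genes, at a rho of −0.43 in D1 and −0.33 in D2, and with ranks adjusted for that number the D1 values were −0.22, −0.33, −0.20 and −0.19. In D1 the value of Mycn was −0.67 in plate columns 1 to 6 and −0.31 in columns 7 to 12, and that of Max −0.088 and −0.55. Mlx in D2 lay at percentile 2.25 of all genes, but it also had a rho of 0.46 with the number of detected genes, at percentile 99.7, and its value after adjustment was −0.13.

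**Figure D5:**
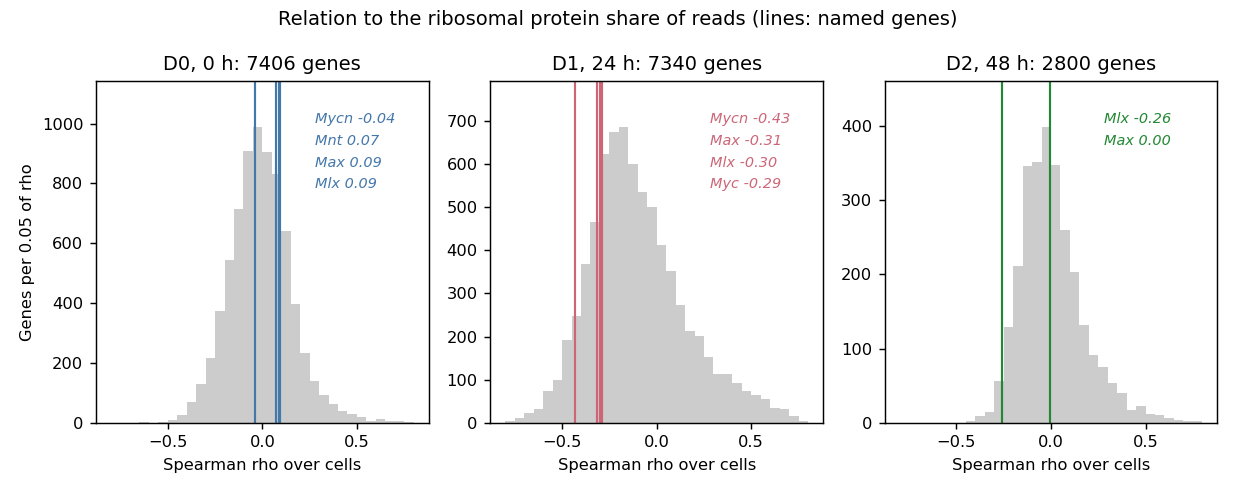
Spearman's rho across cells between each member and the summed share of ribosomal protein reads in D0, D1 and D2 (vertical lines, named with their values), over the distribution of rho for all genes detected in 50% or more of that label's cells (grey histogram, number of genes per bin). In D1 the 4 members lie between −0.43 and −0.29 within a distribution whose median is −0.14.

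In D1, where both MYC genes could be read, they were also set against other summed shares; differences between the genes were not tested. With the share of 20 S phase genes rho was 0.54 for Myc (percentile 96.1 of all genes), 0.44 for Mycn, 0.37 for Max and 0.23 for Mlx, beside a median of 0.16. With the share of 20 G2 and mitosis genes it was 0.36 for Mycn (percentile 97.5) and −0.012 for Myc. With the share of the textbook MYC targets it was −0.29 for Myc (percentile 6.50) and 0.20 for Mycn. In D0 the value of Mnt with the target share was −0.20 (percentile 7.30). Among pairs of members in D1, rho was 0.28 for Myc with Mycn, 0.28 for Myc with Max, 0.21 for Mycn with Mlx, 0.17 for Myc with Mlx, 0.13 for Mycn with Max and 0.12 for Max with Mlx. Each of these members also had a positive rho with the number of detected genes, 0.22 to 0.37, where the median over genes was 0.21.

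The genes whose levels across cells were most like those of Myc, by the mean of rho over the 3 labels among the 2426 genes detected in 50% or more of cells under every label, were Slc2a1 (0.33), which encodes the glucose transporter GLUT1, Cops4 (0.30), the cyclin gene Ccne1 (0.30), P4hb (0.30) and the replication licensing gene Cdt1 (0.30). For Mycn they were the kinase gene Sgk1 (0.35), the DNA methyltransferase gene Dnmt3b (0.32), Fscn1 (0.31), Got2 (0.31) and Pfkl (0.29). For Max they were Rnf5 (0.32), Bzw1 (0.28), Chd4 (0.28), Etv5 (0.27) and Gpi1 (0.27). The 95th percentiles over genes were 0.20, 0.20 and 0.18. These means take in labels in which under 50% of cells had a read of the member, D0 and D2 for Myc and D2 for Mycn, so the order for these genes is weakly based. Slc2a1 had a rho with Myc of 0.71 in D1 and −0.00094 in D0, and Rnf5 had one with Max of 0.46 in D1 and 0.42 in D0.

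Of the rest of the network, Mga, a large MAX-binding repressor, had a mean of 496 CPM in D0, 175 in D1 and 147 in D2, and was at least 2-fold lower in both. Mlxip, the partner of MLX, had 16.4, 6.03 and 21.6 CPM and was lower in D1 only by that limit. Mxd1 and Mlxipl were under the limit for comparison. For the lists that follow, 13.5% of all genes compared were at least 2-fold higher and 29.8% lower in D1, and 15.7% and 28.5% in D2, with medians of −0.36 and −0.17.

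Of 17 cofactors of MYC and its repressors, 0 were at least 2-fold higher and 5 lower (29.4%, near the share of all genes) in D1 than in D0, and 2 were higher and 4 lower (23.5%) in D2. The median log2 ratios were −0.53 and −0.16. Trrap, a scaffold of acetyltransferase complexes, was 0.31-fold in D1 and 0.93-fold in D2, and the deacetylase gene Hdac2 0.29-fold and 0.30-fold. The elongation kinase gene Cdk9 and its cyclin gene Ccnt1 were 0.28-fold and 0.19-fold in D2. Ruvbl1, a helicase of the TIP60 complex, and Zbtb17, which encodes the MYC partner MIZ1, were 2.29-fold and 2.01-fold in D2. In D1 the highest ratios were those of Hdac1 (1.83-fold) and Ruvbl2 (1.63-fold), which did not pass the limit.

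Of 10 genes that act on the turnover of MYC proteins, 0 were higher and 4 lower in D1, and 2 were higher and 1 lower in D2, with medians of −0.31 and −0.12. Gsk3b, the kinase gene whose product is blocked in 2i, was 0.19-fold in D1 and 0.099-fold in D2. The ubiquitin ligase gene Huwe1 was 0.28-fold in D1 and 0.90-fold in D2, and the deubiquitinase gene Usp7 0.44-fold and 0.57-fold. Aurka, whose kinase stabilizes MYCN protein, was 1.56-fold and 2.28-fold, and Gsk3a 0.39-fold and 2.41-fold.

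Of the textbook targets of MYC, 23 had a log2 ratio above 0 in D1, where the median over all genes was −0.36. The share of all genes above 0 was not counted. Of 31 of 32 that could be compared, 5 were at least 2-fold higher (16.1%, near the share of all genes) and 1 lower (3.23%) in D1. Their median log2 ratio was 0.71. With TMM factors on summed reads 14 were higher and 2 lower in D1, where 1858 of 10219 genes were higher and 2353 lower. In D2 over D0, without these factors, 8 were higher and 8 lower (25.8% each), with a median of 0.42. In D1 the largest ratios were those of Npm1, a nucleolar chaperone (2.62-fold), and Nolc1 (2.55-fold). In D2 they were those of Ldha, the lactate dehydrogenase gene (5.29-fold, 2.44-fold in D1), and Odc1, the first enzyme of polyamine synthesis (4.03-fold, 0.96-fold in D1). The lowest were Cad, the gene of pyrimidine synthesis (0.22-fold and 0.26-fold), and the phosphatase gene Cdc25a (0.76-fold and 0.20-fold). The D2 list was split: Npm1 was at 0.80-fold of D0 and Nolc1 at 1.92-fold.

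Of 5 of 6 genes that MYC is known to repress, 2 were higher and 2 lower in D1, and 1 was higher and 0 lower in D2, with medians of −0.67 and −0.44. Gadd45a was 6.02-fold in D1 and 4.84-fold in D2 and Cdkn2b 3.83-fold in D1 (0.82-fold in D2), while the inhibitor gene Cdkn1b was 0.15-fold and 0.58-fold and Ndrg1 0.28-fold and 0.66-fold. Of 79 ribosomal protein genes, 49 were higher (62.03%) and 1 lower in D1, with a median of 1.14, and 2 were higher and 0 lower in D2. With TMM factors on summed reads 31 were higher in D2, where 2597 of 10208 genes were higher. Without these factors the median of the ribosomal protein genes in D2 was 0.34. Their extremes, Rpl29 (78.96-fold in D1) and Rpl24 (0.13-fold), are uncertain: ribosomal protein genes are known for processed pseudogenes, and how the authors' counting treated reads that fit several places is not given in the sources used here. Rpl34 was 6.75-fold in D1 and 1.02-fold in D2, and Rps3a1 4.44-fold and 2.25-fold. The lowest in D2 were Rpl39 (0.59-fold) and Rps27 (0.61-fold), which did not pass the limit.

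Of 20 S phase genes, 2 were higher and 1 lower in D1, and 3 were higher and 2 lower in D2 (medians −0.052 and 0.22). Ccne1 was 5.23-fold in D1 and 3.71-fold in D2, Cdc6 2.13-fold in D1, Gins2 2.58-fold in D2 and Uhrf1, a cofactor of maintenance methylation, 0.36-fold and 0.30-fold. Ccne2 was 0.40-fold in D2, and Slbp, at 0.52-fold in D1, stayed within the limit. Of 20 G2 and mitosis genes, 3 were higher and 1 lower in D1 and 3 higher and 4 lower in D2 (medians −0.0066 and 0.33). Hmmr was 4.21-fold and Cdc20 3.38-fold in D1, where Kif11 was 0.42-fold and Kif20a, within the limit, 0.55-fold. In D2 Ccna2 was 3.09-fold, Cdc20 2.94-fold, Cenpf 0.30-fold and Top2a 0.31-fold.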

How the data were processed

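Per the labels and the authors' methods, single cells were sorted into 96-well plates and RNA libraries made by scNMT-seq. Per the submitters' processing notes the authors used HISAT2 and GRCm38; the counting tool and annotation are not given in the sources used here. The deposited values are whole-number counts of reads per gene, not normalized, for all wells, although the descriptions of the samples point to a table that was filtered and normalized. Depth ran from 202157 to 43336922 reads per passing cell, and in the middle cell 1 read was worth 0.62 CPM in D0, 0.13 in D1 and 0.46 in D2.

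Members and lists were chosen with earlier results of these data known. Wells were matched to labels by title, and all columns were mapped. No doublet caller was run. No 2 well columns were identical. Counts were scaled to CPM per cell, averaged over cells and given as ratios without a pseudocount. No count test was run, because each label is 1 plate. Genes with a mean of at least 5 CPM over the labels were compared, with 2-fold as the limit. For shares and rho each cell was thinned once to 200000 reads; rho used log2(CPM + 1). The thinning, ratios and rho were checked on data with known answers. Named genes were the 9 members, the 2 largest rises and 2 largest falls of each list in D1 and D2 over D0 among genes compared, and the 5 genes most like Myc, Mycn and Max, leaving out predicted genes. Some genes that this rule names are not reported here. The E-box search was added after the files were seen, and 1 other motif was tried and dropped. Transcript lengths came from GENCODE M21, which may not be the authors' annotation. Alternatives were no and stricter filters, summed reads, pseudocounts, totals without ribosomal protein and mitochondrial reads, TMM and median-of-ratios factors, thinning, medians, plate columns, leaving out discordant cells and leaving out each cell; adjustment for detected genes was chosen after seeing the data. Python 3.11.15, numpy 2.4.6, pandas 2.3.3, scipy 1.17.1, R 4.3.3 and edgeR 4.0.16 (TMM factors) were used.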

Additional observations from a re-analysis of the deposited data

Results flagged for a closer look

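Wells that failed the filter and entered no comparison still held reads of the 9 genes. The 6 failing D0 wells had 24 such reads, all in 1 well, of 114562 reads in total, and the 46 failing D1 wells had 97, in 12 wells, of 357724. Both sums are above the 3 reads that a count of 0 allows. This limit takes no account of the wells' total reads, so passing it does not show an excess. In the failing D1 wells 24 of the reads were of Myc and 50 of Mycn, and in the failing D0 wells 0 and 10. There were no empty control wells among the labels to set these against, and the source of the reads was not tested.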

How the results depend on the processing

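No paired analysis was possible because cells of different labels share only well positions and no test was made. The log2 ratio of Myc in D1 over D0, 4.70, became 4.39 if all wells were used, 4.90 with more than 300000 reads and 3000 genes, 4.87 on summed reads, 4.27 and 2.67 with pseudocounts of 1 and 10 CPM, 5.08 with TMM and 4.98 with median-of-ratios factors, 4.58 after thinning, 5.64 in plate columns 1 to 6, 4.28 in columns 7 to 12, 5.13 without the cells discordant in Hprt and 4.60 to 4.94 with any 1 cell left out. In D2 over D0, 4.76 became 5.00 (stricter filter), 4.33 and 2.72 (pseudocounts), 5.00 (TMM), 4.95 (median-of-ratios), 4.46 and 4.90 (plate columns), 4.89 (Hprt) and 4.48 to 5.00 (leaving out a cell). For Mycn in D1 over D0, 1.54 became 1.43 (no filter), 1.90 (summed), 1.37 (10 CPM), 1.59 (totals without ribosomal protein and mitochondrial reads), 2.11 (TMM), 2.01 (median-of-ratios), 1.47 (thinned), 1.27 (medians), 1.30 and 1.72 (plate columns), 1.496 (Hprt) and 1.46 to 1.61 (leaving out a cell). In D2 over D0, 0.79 became 0.69 (10 CPM), 1.09 (TMM), 1.04 (median-of-ratios), 0.76 (thinned), 0.72 and 0.87 (plate columns), 0.53 (Hprt) and 0.67 to 0.86 (leaving out a cell). So Mycn passed 2-fold in D2 only under TMM and median-of-ratios factors. By median over cells Mycn was lower in D2 (0 CPM) than in D0 (36.4 CPM), which gives no ratio.

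Counts of members past 2-fold moved as follows. Higher in D1 over D0 went from 2 to 3 on summed reads and with TMM and median-of-ratios factors. Lower in D1 over D0 went from 1 to 2 with no filter and in plate columns 1 to 6 and to 0 with 10 CPM. Higher in D2 over D0 went from 3 to 5 with TMM and 4 with median-of-ratios factors, and lower from 2 to 1 with TMM and in columns 7 to 12 and to 0 with 10 CPM. Higher in D2 over D1 went from 3 to 2 on summed reads, with 1 CPM, with totals without ribosomal protein and mitochondrial reads, with TMM, thinned and in both sets of plate columns, to 1 without discordant cells and to 0 with 10 CPM, and lower from 1 to 2 on summed reads, with TMM and in columns 1 to 6 and to 0 with 10 CPM. Among the lists, TMM factors on summed reads moved the count of higher genes in D1 over D0 from 5 to 14 for the textbook targets (lower 1 to 2). The higher count went from 0 to 2 for the cofactors (lower 5 to 2), from 0 to 2 for turnover and from 2 to 4 for S phase. In D2 over D0 the same setting moved the higher ribosomal protein genes from 2 to 31 and the higher G2 and mitosis genes from 3 to 8. The effect of summing alone was not counted for the lists. With a limit of 1 CPM, D1 had 4 lower network genes in place of 2, and D2 had 2 in place of 1 and 2 higher repressed genes in place of 1. The log2 ratio of Mxi1 in D2 over D1 was −0.45 in columns 1 to 6, and that of Mlx −0.079 by medians. The share of D1 cells with a Myc read was 94% at full depth. The causes were not tested. Of 386 ratios under alternatives, 368 kept their sign. By value, 102 were labelled the same, 282 moved and 2 reversed, so the sign is the looser measure. By medians over cells, 17.1% and 11.6% of genes past 2-fold were higher in D2 over D0 and over D1. Mycl, Mxd4 and Mnt in D2 rest on reads in at most 7 cells each.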
